A study of Homo sapiens with 18 samples.

Results

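Solute carriers of 4 families were followed by RNA-Seq in HEK293doxERN2 cells: the mitochondrial carriers (SLC25) and 3 families that are inserted into the membrane at the endoplasmic reticulum (ER), the nucleotide sugar transporters and their relatives (SLC35), the zinc exporters (SLC30) and the zinc importers (SLC39). Genes were taken by symbol if they had at least 10 counts in 3 or more of the 18 libraries. Of 101 rows of these families in a table of 25435 rows, 86 qualified, comprising 41 SLC25, 25 SLC35, 9 SLC30 and 11 SLC39 genes. The other 15 rows stayed below the rule and are not described further. They were SLC25A2, SLC25A6, SLC25A31, SLC25A41, SLC25A43, SLC25A47, SLC25A52, SLC30A8, SLC35F4, SLC35G3, SLC35G5, SLC35G6, SLC39A2, SLC39A5 and SLC39A12, each with at most 9 counts in any library. Whether these genes were silent or their reads were not assigned, for instance for SLC25A6 (at most 1 count in any library), was not tested.

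HEK293doxERN2 is a human embryonic kidney line that carries a FLAG-tagged ERN2 transgene under a doxycycline-inducible promoter. Cells received doxycycline at 0, 10 or 100 ng/mL for 24 hours (uninduced, low and high), and vehicle or 200 nM thapsigargin for 3 hours, which gave 6 groups of 3 libraries. All groups carry the transgene. As no group received doxycycline without the transgene, an effect of the drug itself and an effect of ERN2 cannot be told apart. Nothing in the labels says that the 3 libraries of a group came from separate cultures, so the spread between them may be technical.

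ERN2, also called IRE1β, is an ER membrane sensor with a cytosolic ribonuclease domain. It is the epithelial relative of the widely expressed IRE1α, and enzymes of this type splice XBP1 mRNA and can also cleave other mRNAs that are translated at the ER. Thapsigargin blocks the pumps that load calcium into the ER and so causes ER stress. SLC25 carriers exchange metabolites, nucleotides and ions across the inner mitochondrial membrane and are made on cytosolic ribosomes, whereas SLC35, SLC30 and SLC39 proteins pass through the ER on their way to the Golgi, vesicles or cell surface. The comparison of these classes therefore sets multispanning membrane transporters with different routes of insertion side by side. SLC25A17, a peroxisomal carrier, and SLC30A9, which is also found in mitochondria, are exceptions to this division, and other members may be exceptions as well. As the main edgeR fits called neither of them in any comparison, leaving both out could not change the number of genes called.

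Library totals ran from 14876416 to 24652240 counts. Levels are given as CPM (counts scaled to library size, after TMM scaling over all libraries), and differences as log2 fold changes with their standard error (SE) from edgeR's quasi-likelihood test. Genes with an adjusted p under 0.01 were called changed. Where the libraries of a gene, called or not, are said not to overlap, this describes the libraries behind its estimate and is no separate support. The share of all genes without overlap was not counted. ERN2 stood at 6.66 to 9.26 CPM in the uninduced vehicle libraries, at 23 to 56.8 CPM with low and at 244 to 308 CPM with high doxycycline. Of 12 colon epithelium markers, examined because the extraction text in the labels speaks of colon crypts, 10 were too low to be tested and only CDX2 and LGR5 passed the filter on low counts. DDIT3, a marker of ER stress, rose from 9.3 to 11.7 CPM in uninduced vehicle libraries to 155 to 158 CPM with thapsigargin, and XBP1, HSPA5 (BiP) and DNAJB9 had log2 fold changes of 2.66, 2.87 and 2.72. Mean levels of DDIT3, XBP1, HSPA5 and DNAJB9 in uninduced thapsigargin libraries were 157, 488, 3689 and 76.9 CPM. In high thapsigargin libraries they were 92.1, 209, 2034 and 76.7 CPM. In vehicle, the means were 10.1, 78.1, 511 and 11.8 CPM uninduced and 16.1, 159, 915 and 49.4 CPM with high doxycycline. In RNA from whole cultures, less mRNA per cell and fewer cells with that mRNA cannot be told apart.

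In the main edgeR fit, high doxycycline in vehicle lowered more of the ER-inserted carriers than of the mitochondrial ones. Of the 43 SLC35, SLC30 and SLC39 genes tested, 11 (25.6%) fell and 0 rose by edgeR. Of the 40 SLC25 genes tested, 3 (7.5%) fell and 0 rose by edgeR. Over all 14444 genes tested, 7.49% fell and 0.838% rose, so that the SLC25 share lay at the background and the share of the other families above it. With the replicate number as a block, 3 of the 43 and 3 of the 40 were called lower, with 704 of 14444 genes lower. The difference between the classes in calls was thus not seen under that fit. The median log2 fold change was -0.03 for SLC25, -0.50 for SLC35, -0.25 for SLC30 and -0.62 for SLC39, against -0.01 for all genes tested. By family, the genes that fell were 6 of 25 SLC35, 0 of 7 SLC30 and 5 of 11 SLC39. At an unadjusted p under 0.05, 2 SLC30 genes were lower, and SLC30A4 came nearest to the threshold (log2 fold change -0.65, SE 0.17, adjusted p = 0.0229 by edgeR).

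**Figure D1:**
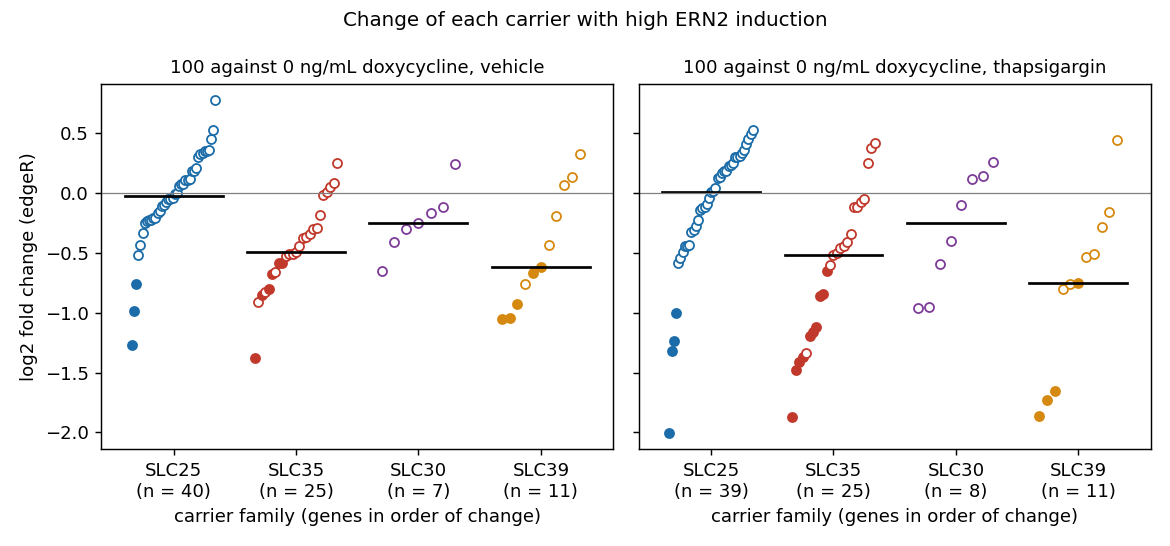
Each point is the log2 fold change of a carrier gene (100 against 0 ng/mL doxycycline, 3 libraries each) in vehicle (left) and in thapsigargin (right), by family, with the family median as a bar and filled points for an adjusted p under 0.01. The SLC25 medians lie near 0 in both panels (-0.03 and 0.01), whereas the SLC39 medians lie at -0.62 and -0.75.

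Among the SLC35 family, SLC35E1, a member with no established substrate (GRCh38 chr19:16549831-16572382), showed the greatest decrease. Its level was 107, 114 and 116 CPM in the uninduced vehicle libraries, 83.1, 94.6 and 80.2 CPM with low doxycycline and 37.4, 46.6 and 45.3 CPM with high doxycycline. The 3 groups did not overlap. High against uninduced gave a log2 fold change of -1.38 (SE 0.12, adjusted p = 5.58e-06 by edgeR).

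Genes that supply the Golgi with donors for glycan synthesis fell to a lesser degree. SLC35B2 imports the sulfate donor PAPS into the Golgi. It stood at 111, 101 and 103 CPM in uninduced and at 64.1, 78.1 and 67.3 CPM in high vehicle libraries (log2 fold change -0.59, SE 0.11, adjusted p = 0.00338 by edgeR). SLC35B4, a transporter of UDP-xylose and UDP-N-acetylglucosamine, was at 93.9, 103 and 95.1 CPM against 60.6, 45.9 and 60.8 CPM (log2 fold change -0.80, SE 0.13, adjusted p = 0.00081 by edgeR). SLC35D2, another UDP-N-acetylglucosamine transporter, fell from 19.1, 21.9 and 19.9 CPM to 13.8, 12.1 and 12.2 CPM (log2 fold change -0.68, SE 0.13, adjusted p = 0.00399 by edgeR). No high library of these 3 genes reached the level of an uninduced library. The remaining SLC35 genes that fell, SLC35F1 (log2 fold change -0.85, from 56.1, 71.1 and 58.6 CPM to 39.3, 28.2 and 35.8 CPM) and SLC35F6 (log2 fold change -0.59, from 64.7, 60.6 and 67.5 CPM to 37.8, 45.2 and 45.2 CPM), have less well defined cargo. With 1 library left out, SLC35D2 and SLC35F6 each passed in 2 of 6 fits, SLC35B2 in 3, and SLC35B4 and SLC35F1 in all 6.

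The other donor transporters did not pass the test in vehicle by edgeR, and DESeq2 also called SLC35A1, SLC35B1 and SLC39A3 as lower. The carriers of CMP-sialic acid (SLC35A1, log2 fold change -0.66, adjusted p = 0.0223 by edgeR), UDP-galactose (SLC35A2, -0.37) and GDP-fucose (SLC35C1, -0.50) had estimates below 0. The estimates were -0.51 for SLC35A3, -0.44 for SLC35B3 and 0.01 for SLC35D1. SLC35B1, which exchanges ATP and ADP across the ER membrane and so feeds the chaperone BiP, stood at 40.1, 38.3 and 41.9 CPM in uninduced and at 24.3, 33.5 and 26.5 CPM in high libraries. The groups did not overlap, but the difference missed the threshold (log2 fold change -0.51, SE 0.14, adjusted p = 0.0277 by edgeR).

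Of 11 zinc importers, 5 fell, namely SLC39A1, SLC39A6, SLC39A8, SLC39A10 and SLC39A14. SLC39A1 (ZIP1; GRCh38 chr1:153959099-153968184) was at 110, 101 and 111 CPM in uninduced and at 49.2, 56.1 and 49.5 CPM in high vehicle libraries, with low doxycycline between them at 91.2, 103 and 84.4 CPM. The high libraries lay far below the others (log2 fold change -1.06, SE 0.11, adjusted p = 2.67e-05 by edgeR), whereas the uninduced and low libraries overlapped. SLC39A6 and SLC39A10 (ZIP6 and ZIP10), which import zinc as a pair, had log2 fold changes of -0.62 (SE 0.12) and -0.93 (SE 0.17). SLC39A6 went from 117, 149 and 122 CPM to 86.3, 76.8 and 90.6 CPM, and SLC39A10 from 43.7, 59.7 and 42.3 CPM to 29.2, 20.2 and 27.2 CPM. In both genes the second uninduced library was the highest, and the groups did not overlap.

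SLC39A8 and SLC39A14 (ZIP8 and ZIP14) carry manganese and iron as well as zinc. SLC39A8 stood at 29.7, 54.9 and 29 CPM in uninduced and at 19.4, 18.3 and 17.4 CPM in high libraries (log2 fold change -1.04, SE 0.22, adjusted p = 0.00543 by edgeR). Its second uninduced library was again far above the other two. SLC39A14 stood at 62.1, 65.8 and 69.2 CPM against 37.6, 44.8 and 41.2 CPM (log2 fold change -0.67, SE 0.12, adjusted p = 0.00154 by edgeR).

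SLC39A7 (ZIP7), which releases zinc from the ER and Golgi into the cytosol, did not share this direction. Its level was 195, 180 and 212 CPM in uninduced, 255, 298 and 284 CPM in low and 228, 279 and 228 CPM in high vehicle libraries. The high libraries were all above the uninduced ones, without passing the test (log2 fold change 0.33, SE 0.12, adjusted p = 0.0827 by edgeR). SLC39A3 (ZIP3) had a log2 fold change of -0.76 (SE 0.21, adjusted p = 0.0262 by edgeR), SLC39A9 of -0.44, SLC39A11 of -0.19 and SLC39A13 of 0.07. Among the exporters, SLC30A1 at the cell surface and SLC30A5, SLC30A6 and SLC30A7 of the early secretory pathway did not pass the test, with log2 fold changes from -0.30 to 0.24. SLC30A9 stood at -0.25.

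The 3 SLC25 genes that fell act in different pathways. SLC25A1 exports citrate from mitochondria for the synthesis of fatty acids and sterols (GRCh38 chr22:19175575-19178830). It was at 161, 137 and 143 CPM in uninduced, 121, 175 and 124 CPM in low and 48.3, 78 and 56.2 CPM in high vehicle libraries. The low libraries overlapped the uninduced ones, and the high libraries lay below both groups (log2 fold change -1.27, SE 0.16, adjusted p = 0.000127 by edgeR). SLC25A3, the phosphate carrier that serves ATP synthesis, was at 276, 273 and 296 CPM in uninduced, 237, 236 and 239 CPM in low and 141, 182 and 176 CPM in high libraries, with no overlap between groups (high against uninduced: log2 fold change -0.76, SE 0.12, adjusted p = 0.000545 by edgeR). SLC25A26 imports S-adenosylmethionine into mitochondria and was at 9.51, 10.2 and 10.1 CPM against 4.39, 5.82 and 4.75 CPM (log2 fold change -0.99, SE 0.17, adjusted p = 0.00125 by edgeR).

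Most other mitochondrial carriers showed small differences. SLC25A5, the main ADP/ATP exchanger of dividing cells, was at 245, 264 and 237 CPM in uninduced and at 185, 303 and 236 CPM in high libraries, which overlapped. Across the other carriers of known role, namely those of ADP and ATP (SLC25A4), aspartate and glutamate (SLC25A12, SLC25A13, SLC25A22), dicarboxylates (SLC25A10, SLC25A11), ornithine (SLC25A15), carnitine esters (SLC25A20), iron (SLC25A28, SLC25A37), glycine (SLC25A38), pyrimidine nucleotides (SLC25A33, SLC25A36), NAD (SLC25A51), glutathione (SLC25A39, SLC25A40) and branched-chain amino acids (SLC25A44), with SLC25A17, SLC25A24, SLC25A32, SLC25A42 and SLC25A46, log2 fold changes ran from -0.43 to 0.36 and 0 passed the test in edgeR. Of all SLC25 genes, 7 (17.5%) were higher and 6 (15%) lower at an unadjusted p under 0.05, near the 12.2% and 17.1% of all genes. DESeq2 called 5 SLC25 genes, the same 3 with SLC25A23 (-0.51) and, in the other direction, SLC25A25 (0.53). Over all genes, it called 281 higher and 1369 lower. The count of SLC35, SLC30 and SLC39 genes called by edgeR was 7 without high vehicle library 3 and 7 with all 6 groups in the fit. With the replicate number as a block it was 3 of 43, a count equal to the 3 of 40 SLC25 genes under that fit. Over all 14444 genes, that fit called 704 lower and 46 higher. Same-numbered libraries did not deviate together in this comparison (correlations -0.48 to 0.14).

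**Figure D2:**
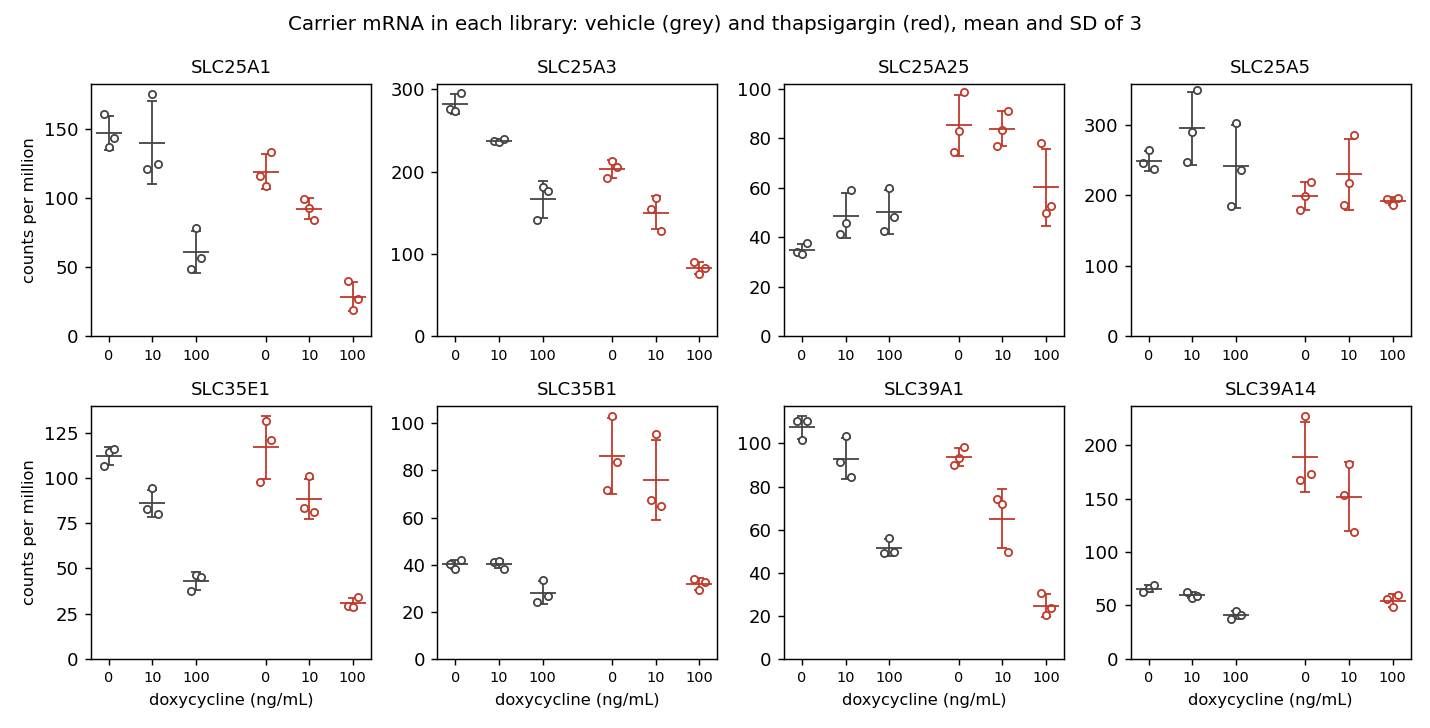
Levels (CPM) of 8 carriers in each library (open points) against the doxycycline dose, for vehicle (grey) and thapsigargin (red), with the mean and SD of 3 libraries. SLC35E1, SLC39A1, SLC25A1 and SLC25A3 were lowest at 100 ng/mL with both treatments, whereas the SLC25A5 libraries of the doses overlapped within each treatment.

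Genes around these families were counted in the same comparison from lists of related function. Of 11 other mitochondrial transporter and carrier-like genes with symbols outside the rule (UCP2, UCP3, MTCH1, MTCH2, MPC1, MPC2 and SFXN1 to SFXN5), 0 were called by edgeR. Without adjustment, 2 were higher and 1 lower (p under 0.05). Of 10 tested genes that import carriers into mitochondria, TOMM20, a receptor of the outer membrane, fell (log2 fold change -0.88, SE 0.13) and the other 9 did not pass. Of 10 tested other transporters of the ER and Golgi, 3 fell and 1 rose. TMEM165, a Golgi transporter of manganese and calcium, dropped from 55.4, 55 and 56.1 CPM to 10.9, 11.3 and 12.2 CPM (log2 fold change -2.27, SE 0.12), ATP2C1, the Golgi calcium and manganese pump, had a log2 fold change of -1.09 (SE 0.13), and SLC17A5, the lysosomal sialic acid exporter, one of -0.99 (SE 0.12). SLC33A1, which imports acetyl-CoA into the ER, rose (log2 fold change 0.78, SE 0.11). Of the zinc buffering and sensing genes, 4 of 9 were tested, none was called by edgeR and 0 had an unadjusted p under 0.05.

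No carrier passed the test at the low dose, a comparison that shares its uninduced libraries with that of the high dose. Low against uninduced vehicle gave 0 calls among 40 SLC25 and 0 among 45 SLC35, SLC30 and SLC39 genes by edgeR, with 0.138% of 14497 genes higher and 0.0552% lower. The split of 20 higher and 8 lower turned to 107 and 274 with DESeq2, 155 and 468 with no filter and 35 and 89 with the replicate block. At an unadjusted p under 0.05, 8 SLC25 genes were higher and 2 lower, whereas 3 of the other class were higher and 12 lower, against 14% and 16.5% of all genes. The median log2 fold change was 0.02 for SLC25 and -0.14 for the other class. DESeq2 called 1 of the latter, SLC39A7, as higher (log2 fold change 0.51, SE 0.12). Without the first low vehicle library, edgeR called 6 SLC25 genes and 10 of the other class, with no count over all genes for that fit.

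High against low vehicle lowered SLC25A1 (log2 fold change -1.19, SE 0.19, adjusted p = 0.00618), SLC35E1 (-0.98, SE 0.13, adjusted p = 0.00303) and SLC39A1 (-0.84, SE 0.12, adjusted p = 0.00393) by edgeR, and no member rose. Of 14549 genes, 2.43% were lower and 0.0137% higher. These 3 carriers had no overlap between the low and high libraries. All 3 calls depended on single libraries and were lost without low library 2, high library 1 or high library 3. DESeq2 called 4 SLC25 genes and 7 of the other class, all lower. Over all genes, it called 788 lower and 13 higher.

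Loops that resemble the XBP1 splice sites were sought in the reference mRNAs, as a description of the sequences and not of cleavage. The search looked for the letters CNGCAGN closed by at least 4 Watson-Crick pairs in the transcript with the longest coding sequence of each gene (GENCODE 29). Among 82 members tested in vehicle, 5 held such a loop (6.1%), against 488 of 12755 genes (3.83%). Of all genes lower at the high dose in vehicle, 71 of 1033 (6.87%) held one. Of the 23 members that edgeR called lower at the high dose with either treatment, 2 held one, SLC25A1 and SLC35F6. Among the other 59 members 3 did, SLC25A17, SLC25A35 and SLC30A9. The loops of SLC25A1 and SLC35F6 lie in the 3′ UTR, in exon 9 of SLC25A1 (GRCh38 chr22:19175697-19175715, minus strand) and exon 6 of SLC35F6 (chr2:26778691-26778707, plus strand). They are shown beside the pair of sites in coding exon 4 of XBP1 (chr22:28796143-28796161 and chr22:28796116-28796136, minus strand), and beside a loop in coding exon 6 of SLC25A17 (chr22:40777241-40777261, minus strand), which edgeR did not call, whereas DESeq2 called it lower at the high dose in thapsigargin (log2 fold change -0.57). Capitals mark the letters of the loop and lower case the paired stem.
XBP1 first site: ctgagtCCGCAGCactcag
XBP1 second site: tgcacctCTGCAGCaggtgca
SLC25A1: caggggCTGCAGCcccctg
SLC35F6: accacCTGCAGGgtggt
SLC25A17: tttaaaaCGGCAGCttttaaa

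SLC35E1, SLC39A1, SLC25A3 and SLC25A26 held no such loop in the transcripts searched. Base composition differed along the division into fallen and other genes. The 19 SLC35, SLC30 and SLC39 genes that fell with either treatment had a median transcript GC content of 51.6%, and the 23 that did not had 41.6%, against 49.6% over all genes and 50.2% over all genes lower at the high dose in vehicle. The letters CNGCAGN without regard to a stem occurred 2.16 times per kilobase in the former (median) and 1.28 times in the latter, against 2.02 over all genes. The part of base composition in the result was not tested.

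Thapsigargin alone changed carriers of both classes in both directions. In uninduced cells, 4 SLC25 genes rose and 1 fell of 39 tested, and 2 SLC35, SLC30 or SLC39 genes rose and 3 fell of 44 tested. These shares bracket the background of 6.45% of 14397 genes higher and 4.74% lower. The medians lay at -0.03 for SLC25 and -0.11 for the other class.

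SLC39A14 showed the largest increase among the carriers. It went from 62.1, 65.8 and 69.2 CPM in vehicle to 167, 227 and 173 CPM in thapsigargin (log2 fold change 1.54, SE 0.13, adjusted p = 5.34e-06 by edgeR). SLC25A25, a calcium-regulated carrier of ATP-Mg and phosphate (GRCh38 chr9:128068201-128109245), went from 34.1, 33.1 and 37.4 CPM to 74.5, 82.7 and 98.8 CPM (log2 fold change 1.30, SE 0.13, adjusted p = 2.11e-05 by edgeR). SLC35B1, the ER importer of ATP (chr17:49700934-49709014), went from 40.1, 38.3 and 41.9 CPM to 71.6, 103 and 83.7 CPM (log2 fold change 1.12, SE 0.14, adjusted p = 0.000134 by edgeR). All 3 genes were higher in each thapsigargin library than in any vehicle library.

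Smaller increases were found for the mitochondrial carriers of glycine for heme synthesis (SLC25A38) and of iron (SLC25A28, mitoferrin 2). SLC25A38 rose from 37.2, 36.7 and 41.5 CPM to 55.6, 61.8 and 69.9 CPM (log2 fold change 0.71, SE 0.12) and SLC25A28 from 24.7, 21 and 23.9 CPM to 32.8, 33.1 and 40.7 CPM (0.63, SE 0.13). With any one of the uninduced vehicle libraries left out, SLC25A28 no longer passed the threshold. The number of SLC25 calls was 1 without the first of these libraries, 2 without each of the others and 3 without the second thapsigargin library.

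The decreases with thapsigargin comprised SLC39A10, SLC35G1, SLC35F5 and SLC25A3. SLC39A10 went from 43.7, 59.7 and 42.3 CPM to 29.8, 27.5 and 18 CPM (log2 fold change -0.94, SE 0.19, adjusted p = 0.00341 by edgeR). SLC35G1 went from 7.43, 8.26 and 9.06 CPM to 4.08, 4.21 and 5.02 CPM (log2 fold change -0.88, SE 0.18) and SLC35F5 from 30.1, 40.9 and 28.4 CPM to 18.6, 21.2 and 19.3 CPM (-0.74, SE 0.15). SLC25A3 went from 276, 273 and 296 CPM to 192, 213 and 205 CPM (log2 fold change -0.46, SE 0.10, adjusted p = 0.005 by edgeR). With 1 library left out, SLC25A3 passed in 1 of 6 fits, SLC35G1 in 3, SLC35F5 in 4 and SLC39A10 in 6. None of the 4 genes overlapped between the groups. DESeq2 called 11 rather than 5 of the SLC35, SLC30 and SLC39 genes, and edgeR called 3 without the first thapsigargin library. Over all genes, DESeq2 called 1259 higher and 1076 lower.

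SLC39A7 (log2 fold change 0.46, adjusted p = 0.0221 by edgeR), SLC35C1 (0.46, adjusted p = 0.0168) and SLC35A2 (0.31, adjusted p = 0.127) had estimates above 0, and SLC39A8 one of -0.83 (adjusted p = 0.0141), none past the threshold in edgeR, whereas DESeq2 called SLC35C1 and SLC39A8. The SLC30 exporters did not pass in either direction, with medians near 0 (-0.05 over 8 genes), and 0 of them had an unadjusted p under 0.05. Among the listed neighbours, SLC33A1 rose (log2 fold change 0.88, SE 0.16), and TMEM165 (-0.51, SE 0.12), SLC17A5 (-0.66, SE 0.13), SFXN1, a mitochondrial serine transporter (-0.45, SE 0.10), and MT2A, a zinc-binding metallothionein (-0.74, SE 0.15), fell. MT2A stood at 23.7, 18.9 and 22.8 CPM in vehicle and at 12, 11.8 and 15.1 CPM in thapsigargin.

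Promoters were examined for letters bound by factors of the ER stress response, because several members rose with thapsigargin. RefSeq promoters (GRCh38.p14, 250 bases before to 50 bases after the start) were at hand for 73 of the 86 members, with 99 start sites in all. The core CCACG was found on either strand in 60.6% of them (66.7% for SLC25, 55.6% for the other class), against 38.1% of 35116 promoters. The longer forms, CCAAT with CCACG 9 bases on (ERSE), ATTGG with CCACG 1 base on (ERSE-II), TGATGNAAT and TTGCATCA, were found in 0 of the 99, against 0.0769%, 0.0541%, 0.991% and 0.866% of all promoters. TGACGTGG was found in 2 of them, those of SLC30A5 and SLC39A13, against 0.729% of all. The metal response core (TGCACNC or TGCGCNC) was found in 40% of SLC25 and 48.1% of the other promoters, against 29.6% of all. The set of all promoters was not limited to genes expressed here, and start sites of the same gene were counted separately. Whether the members differ from other expressed genes in these letters was not tested. The promoters of the 2 carriers other than SLC39A14 that rose most are shown, 5′ to 3′ on the coding strand, with CCACG (here read as CGTGG on the opposite strand) in capitals. For SLC25A25, which has 3 listed start sites, the site at chr9:128098257-128098556 (plus strand), with 1 CCACG, is given, and the other sites held 3 and 0. For SLC35B1 the window is chr17:49707915-49708214 (minus strand) and holds none of the longer motifs and no CCACG.
SLC25A25: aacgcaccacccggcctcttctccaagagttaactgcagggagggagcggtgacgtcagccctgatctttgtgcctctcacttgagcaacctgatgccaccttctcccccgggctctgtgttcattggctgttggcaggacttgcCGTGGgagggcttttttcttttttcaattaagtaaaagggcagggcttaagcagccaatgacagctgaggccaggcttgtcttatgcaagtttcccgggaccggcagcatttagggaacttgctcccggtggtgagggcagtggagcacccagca
SLC35B1: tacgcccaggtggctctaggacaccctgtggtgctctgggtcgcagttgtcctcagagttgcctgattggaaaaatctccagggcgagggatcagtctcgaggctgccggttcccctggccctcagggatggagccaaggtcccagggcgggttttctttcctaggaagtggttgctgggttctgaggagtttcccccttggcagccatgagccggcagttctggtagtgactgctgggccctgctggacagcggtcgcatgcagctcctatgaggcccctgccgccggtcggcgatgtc

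The same treatment was compared at the other doses. The members that rose were chosen by their change in uninduced cells, so a smaller value at another dose is no finding, and the test of the difference follows. With low doxycycline SLC39A14 was the only member called by edgeR (log2 fold change 1.36, SE 0.15, adjusted p = 0.00107 by edgeR), at 1.16% of 14607 genes higher and 0.294% lower. It was lost without the second low vehicle library. None of the 41 SLC25 genes was called by edgeR, with 5 higher and 5 lower at an unadjusted p under 0.05 (all genes 13.6% and 11%). DESeq2 called 3 genes of each class, with 667 genes higher and 434 lower over all. SLC35B1 went from 41.1, 41.5 and 38.2 CPM to 67.6, 95.5 and 65 CPM without passing the threshold (log2 fold change 0.92, SE 0.16, adjusted p = 0.0101 by edgeR), and SLC25A25 had a log2 fold change of 0.79 (adjusted p = 0.0157 by edgeR). Both were called higher by DESeq2 and by the fits with no filter, with all 6 groups and with the replicate block.

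High doxycycline left 0 of 40 SLC25 and 0 of 43 other genes called by edgeR, at 0.18% of 14427 genes higher and 0.0208% lower. The split over all genes, 26 higher and 3 lower, was 28 and 23 with library totals and turned to 257 and 475 with DESeq2, 110 and 189 with no filter and 233 and 708 with all 6 groups. SLC39A14 stood at 37.6, 44.8 and 41.2 CPM in vehicle and at 55.8, 48.3 and 59.5 CPM in thapsigargin (log2 fold change 0.45, SE 0.15, adjusted p = 0.102 by edgeR). SLC35B1 stood at 24.3, 33.5 and 26.5 CPM against 34.1, 29.2 and 32.5 CPM, which overlapped. At an unadjusted p under 0.05, 1 gene of the SLC35, SLC30 and SLC39 class was higher and 17 were lower, and 3 SLC25 genes were higher and 7 lower, against 14.6% and 12.3% of all genes. DESeq2 called 3 SLC25 genes (SLC25A1, SLC25A3 and SLC25A10) and 7 of the other class, all lower. Without the first high thapsigargin library, edgeR called 8 SLC25 genes, of which 3 were higher, and 10 of the other class, all lower.

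**Figure D3:**
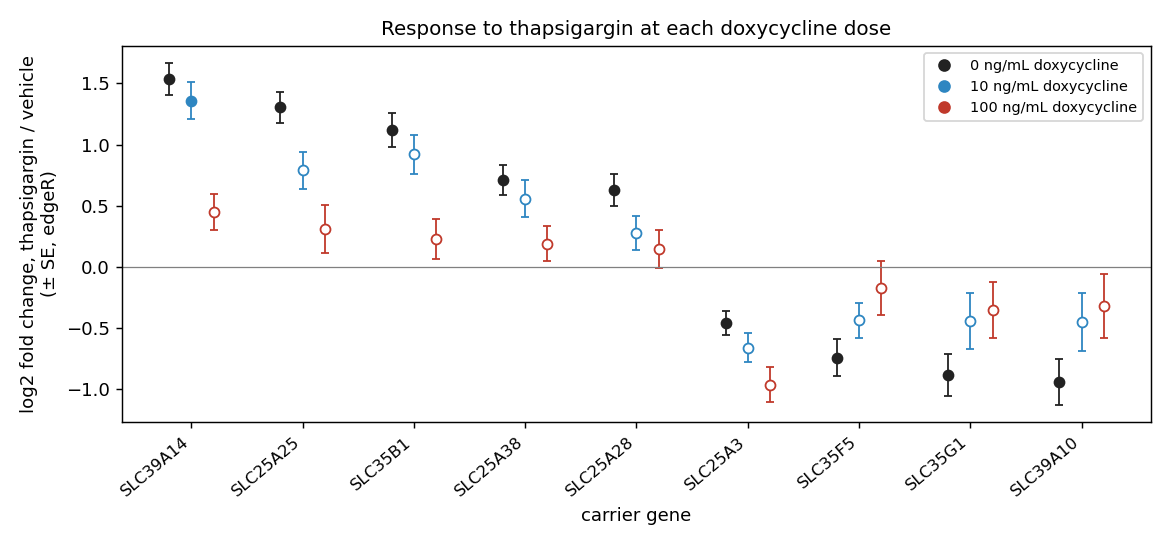
Log2 fold change of thapsigargin against vehicle (± SE, edgeR, 3 against 3 libraries) for 9 carriers chosen for a call at any dose, at 0, 10 and 100 ng/mL doxycycline, with filled points for an adjusted p under 0.01. SLC39A14 ran from 1.54 over 1.36 to 0.45, whereas SLC25A3 ran from -0.46 over -0.66 to -0.96.

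The test of the difference itself, the interaction of doxycycline and thapsigargin, called no carrier in edgeR. With high doxycycline, 0 of 40 SLC25 and 0 of 45 other genes passed, at 0.00677% of 14768 genes higher and 0.0339% lower. By edgeR, the nearest were SLC39A14 (-1.0, SE 0.19, adjusted p = 0.0276) and SLC39A7 (-1.02, SE 0.20, adjusted p = 0.0313), followed by SLC39A1 (-0.75, adjusted p = 0.0601), SLC35A2 (-0.98, adjusted p = 0.0601), SLC35F6 (-0.83, adjusted p = 0.0644), SLC25A25 (-0.91, adjusted p = 0.0681) and SLC35B1 (-0.80, adjusted p = 0.0702). DESeq2 called these 7 and no other member. Over all genes, it called 138 higher and 203 lower. Without adjustment (p under 0.05), 6 SLC25 genes were higher and 5 lower, and 3 of the other class were higher and 14 lower, against 15.6% and 9.15% of all genes. Without the first high thapsigargin library, edgeR called 2 SLC25 and 8 other genes, all lower, so the outcome turned on this library. In simulated counts, edgeR found 15.6% of 199 genes with a true 2-fold interaction among 14627 genes, so edgeR mostly could not detect a difference of that size here. DESeq2 found 45.7% of them, with 6.19% false calls. With low doxycycline the interaction gave 0 calls over 14857 genes (0% higher and 0% lower) by edgeR. Among members, 1 SLC25 gene was lower and, in the other class, 1 gene was higher and 1 lower at an unadjusted p under 0.05. DESeq2 called 0 members.

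High against uninduced cells within thapsigargin used other libraries than the comparison in vehicle, and again more of the ER-inserted carriers were called lower. Of 44 SLC35, SLC30 and SLC39 genes, 14 (31.8%) fell, and of 39 SLC25 genes 4 (10.3%) fell by edgeR, with 0 rising in either class. DESeq2 called 17 of the former as lower, and 5 SLC25 genes as lower and 1 as higher. Over all genes, it called 1654 lower and 677 higher. By edgeR, 9% of 14358 genes fell and 1.53% rose. The medians were 0.01 for SLC25, -0.52 for SLC35, -0.25 for SLC30 and -0.75 for SLC39, against 0.04 for all genes. By family, 10 of 25 SLC35, 0 of 8 SLC30 and 4 of 11 SLC39 genes fell. Without adjustment (p under 0.05), 0 SLC30 genes were higher and 3 lower, against 16.3% and 19.3% of all genes. The lowest of them was SLC30A3, an exporter that loads zinc into vesicles (-0.96), which DESeq2 called (SE 0.29), as did the fits with no filter, with all 6 groups and with the replicate block.

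SLC39A14 and SLC35B1, which rose with thapsigargin, were lower at the high dose, and both comparisons share the uninduced thapsigargin libraries. SLC39A14 stood at 167, 227 and 173 CPM in uninduced and at 55.8, 48.3 and 59.5 CPM in high thapsigargin libraries (log2 fold change -1.73, SE 0.16, adjusted p = 1.8e-05 by edgeR). SLC35B1 stood at 71.6, 103 and 83.7 CPM against 34.1, 29.2 and 32.5 CPM (log2 fold change -1.37, SE 0.17, adjusted p = 0.000116 by edgeR). SLC39A7, which was not lower in vehicle, stood at 224, 317 and 256 CPM against 181, 136 and 137 CPM (log2 fold change -0.75, SE 0.17, adjusted p = 0.00687 by edgeR). In each of these 3 genes the high libraries lay below all uninduced ones.

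The zinc importers SLC39A1 and SLC39A3 fell as well. SLC39A1 stood at 90.2, 93.1 and 98.4 CPM against 30.4, 20.1 and 23.6 CPM (log2 fold change -1.86, SE 0.17), and SLC39A3 at 30.3, 29.1 and 38.5 CPM against 12.4, 8.04 and 9.23 CPM (-1.65, SE 0.20). For SLC39A1 low doxycycline gave 74.2, 71.7 and 49.4 CPM, between the other groups. The importers SLC39A6 (-0.16), SLC39A8 (-0.53) and SLC39A10 (-0.28), which fell in vehicle, did not pass the test in thapsigargin. SLC39A6 stood at 92.7, 99.5 and 81.9 CPM in uninduced and at 52.4, 86.4 and 95.7 CPM in high thapsigargin libraries, which overlapped, and its estimate was 0.08 without the first high library. The estimates of SLC39A9 (-0.51), SLC39A11 (-0.76) and SLC39A13 (-0.80) and of the exporters SLC30A1 (-0.59), SLC30A5 (-0.40), SLC30A6 (0.26), SLC30A7 (0.12) and SLC30A9 (0.15) did not pass in edgeR either. DESeq2 called SLC39A11 and SLC39A13 as lower, and the fit with all 6 groups these and SLC30A1. In SLC39A8 and SLC39A10, too, the groups overlapped.

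Of the Golgi donor transporters, 4 fell in thapsigargin. SLC35A2 (UDP-galactose) stood at 40, 45.1 and 53.1 CPM against 20.6, 13.2 and 15.8 CPM (log2 fold change -1.41, SE 0.19, adjusted p = 0.000188 by edgeR). SLC35B2 (PAPS) stood at 76.3, 76.5 and 87.4 CPM against 37.9, 29.2 and 33.3 CPM (-1.19, SE 0.15). SLC35C1 (GDP-fucose) stood at 30.8, 31.4 and 34.1 CPM against 17.5, 10.7 and 13.1 CPM (-1.16, SE 0.19), and SLC35B4 (UDP-xylose) at 69.9, 82.5 and 65.1 CPM against 34.9, 34.8 and 46.3 CPM (-0.85, SE 0.17). All high libraries of these genes were below all uninduced ones. Of the fixed donor transporters, SLC35A1 (-0.46), SLC35A3 (-0.11), SLC35B3 (-0.11), SLC35D1 (-0.08) and SLC35D2 (-0.44) did not pass.

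SLC35E1 showed the second lowest value of all members, at 97.9, 132 and 121 CPM against 29.1, 28.6 and 34.1 CPM (log2 fold change -1.87, SE 0.16, adjusted p = 1.11e-05 by edgeR). No high library came near the uninduced ones. SLC35F6 stood at 59.3, 70.2 and 79.6 CPM against 28.1, 18.3 and 25.3 CPM (-1.48, SE 0.18), and SLC35C2 at 65.3, 65.1 and 72.4 CPM against 43.5, 31.3 and 32.4 CPM (-0.86, SE 0.16). SLC35F2 stood at 61.3, 68.1 and 69 CPM against 38.6, 40 and 42.4 CPM (-0.65, SE 0.14), and the low-level SLC35E4 at 8.7, 6.21 and 9.75 CPM against 4.44, 3.07 and 3.31 CPM (-1.12, SE 0.24). These 4 genes, too, had no overlap between the groups. With 1 library left out, SLC35F2 passed in 1 of 6 fits, and SLC35C2 and SLC35E4 in 2 each.

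The mitochondrial carriers that fell were those of the vehicle comparison and the dicarboxylate carrier SLC25A10. SLC25A1 stood at 116, 109 and 133 CPM in uninduced, 99.2, 92.8 and 84 CPM in low and 39.5, 18.7 and 27.1 CPM in high thapsigargin libraries (high against uninduced: log2 fold change -2.00, SE 0.22, adjusted p = 5.11e-05 by edgeR). SLC25A3 stood at 192, 213 and 205 CPM, 155, 168 and 128 CPM, and 89.9, 75.7 and 82.4 CPM in the same order (-1.24, SE 0.13). For both carriers the 3 doses did not overlap. SLC25A26 stood at 10.1, 11 and 8.54 CPM against 3.95, 2.32 and 4.99 CPM (-1.32, SE 0.26), and SLC25A10 at 56.2, 60.5 and 79.6 CPM against 38.3, 28.5 and 26.7 CPM (-1.01, SE 0.18). The other carriers of known role ran from -0.58 to 0.52 and did not pass in edgeR. DESeq2 also called SLC25A17 as lower (-0.57, SE 0.17) and SLC25A24 as higher (0.53, SE 0.17), and the fit with all 6 groups SLC25A17 and SLC25A44 as lower. Among them, SLC25A5 overlapped again, at 179, 198 and 219 CPM against 195, 186 and 195 CPM.

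The number of SLC25 genes called was 10, of which 3 were higher, without the first high library, and 2 without the second. The number in the other class was 9 without the first uninduced thapsigargin library and 9 without the second high library. Of the listed neighbours, TMEM165 (-1.86, SE 0.19), ATP2C1 (-1.17, SE 0.20) and SLC37A4, the ER glucose-6-phosphate transporter (-1.14, SE 0.17), fell. Of 10 tested import genes and of the 11 other mitochondrial transporter and carrier-like genes, 0 were called by edgeR. At an unadjusted p under 0.05, 1 import gene was higher and 2 lower, and 3 of the transporter and carrier-like genes were higher and 3 lower. In the zinc buffering list 0 of 4 tested genes were called by edgeR, with 2 higher and 1 lower at an unadjusted p under 0.05.

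Side by side, the vehicle and thapsigargin comparisons shared no library. Of 43 SLC35, SLC30 and SLC39 genes tested in both, 31 (72.1%) had estimates below 0 in both, against 9 of 39 SLC25 genes (23.1%) and 26.9% of 14203 genes. Calls in both numbered 6 of 11 and 14 in the former class, namely SLC35E1, SLC35B2, SLC35B4, SLC35F6, SLC39A1 and SLC39A14, and 3 of 3 and 4 among SLC25 genes, namely SLC25A1, SLC25A3 and SLC25A26. Over all genes tested in both, 825 were called lower in both, of 1079 in vehicle and 1290 in thapsigargin. Shared calls were thus not particular to the carriers. Across genes, which are not independent replicates, Pearson's r between the log2 fold changes with vehicle and with thapsigargin was 0.58 for SLC25 and 0.52 for the other class, against 0.58 for all genes.

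Low against uninduced within thapsigargin gave 0 calls over 14509 genes (0% higher and 0% lower) by edgeR. DESeq2 called 0 members, and at an unadjusted p under 0.05, 2 genes of each class were lower and 0 higher. In this comparison libraries of the same replicate number deviated together, and with the number as a block edgeR called 3 genes in each class. Over all 14509 genes, that fit called 197 higher and 367 lower. SLC25A3 (log2 fold change -0.44, SE 0.06), SLC25A1 (-0.37, SE 0.07), SLC39A1 (-0.54, SE 0.09), SLC35E1 (-0.40, SE 0.07) and SLC39A14 (-0.32, SE 0.07) were lower and SLC25A11, the oxoglutarate carrier, was higher (0.29, SE 0.07).

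The level of each family as a whole was summarised per library as the median over its genes of log2(CPM + 0.5), relative to the mean of the uninduced vehicle libraries. The SLC25 median stayed between -0.15 and 0.05 in all 18 libraries. The SLC35 median was -0.49, -0.42 and -0.43 in the high vehicle and -0.84, -0.63 and -0.79 in the high thapsigargin libraries. The SLC39 median was -0.58, -0.55 and -0.51 and then -1.05, -0.92 and -0.70, and the SLC30 median -0.14, -0.30 and -0.22 and then -0.49, -0.33 and -0.18. The median over all SLC35, SLC30 and SLC39 genes minus that of SLC25 ran from -0.42 to -0.34 in the high vehicle and from -0.63 to -0.43 in the high thapsigargin libraries, and from -0.24 to 0.02 in the other 12 libraries, which did not overlap with either.

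**Figure D4:**
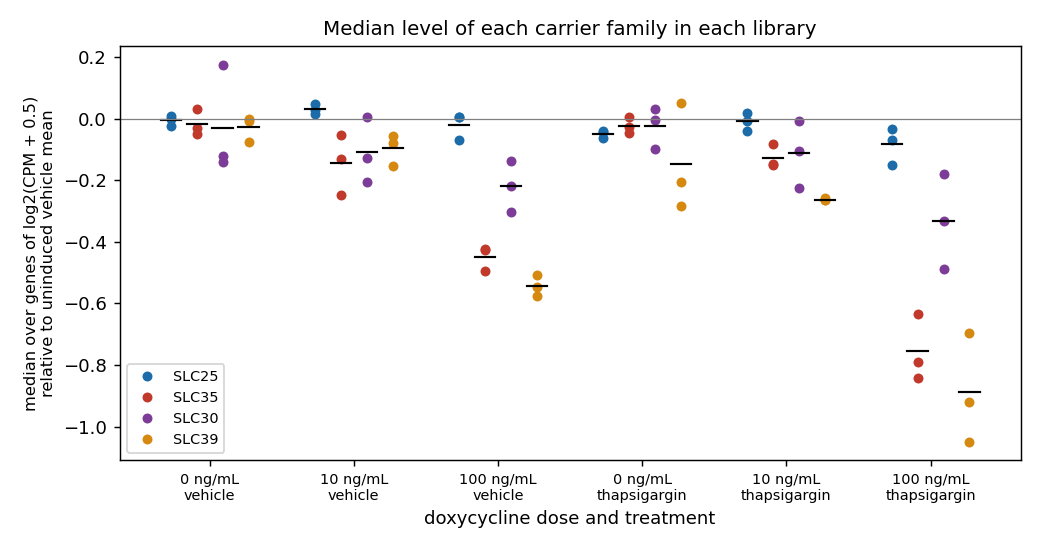
Median log2(CPM + 0.5) of each carrier family in each library (points), relative to the mean of the uninduced vehicle libraries, by doxycycline dose and treatment, with the mean of 3 libraries as a bar. The SLC25 points lie between -0.15 and 0.05 throughout, whereas the SLC39 points reach -1.05 at 100 ng/mL with thapsigargin.

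Reads of some members could not be assigned with certainty. SLC35E2 has a near-identical copy, SLC25A5 has processed pseudogenes and the paralog SLC25A4, and SLC25A51 resembles SLC25A52. In the GENCODE 29 annotation, another gene on the same strand covers 69.7% of the exonic bases of SLC25A32 (AC012213.5), 55.5% of SLC35A1 (AL049697.1), 46.6% of SLC25A10 (AC139530.2), 60.8% of SLC39A1 (AL358472.7) and 46.8% of SLC35D2 (AL160269.1). A gene on the opposite strand covers 27.7% of SLC35E4 (DUSP18), 15.5% of SLC25A26 (LRIG1) and 13.5% of SLC25A25 (SLC25A25-AS1). The annotation and strand setting behind the counts are not given in the sources used here, and the part of these overlaps in the results was not tested.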

How the data were processed

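RNA of 18 libraries of HEK293doxERN2 cells was sequenced by the study from stranded mRNA libraries (75-cycle single-end reads, NextSeq500), aligned with STAR through VIPER and counted per gene by the authors. The deposited values are raw counts, not normalized, and the submitters' processing notes name the build hg38. Which annotation and strand setting were used is not given in the sources used here. Groups were taken from the sample labels. Carriers were matched by symbol, and the genes and lists were chosen with earlier results of these data known. The rule for named genes was every carrier past the threshold in any comparison, a list of carriers of known role whatever their values, except 1 carrier that is counted but not reported here by name, and 5 checks (ERN2, XBP1, HSPA5, DNAJB9, DDIT3). SLC25A23, SLC30A3, SLC30A4 and the promoter, loop and neighbour genes fall outside it and were chosen after their values were seen or from other lists.

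Each comparison was fitted over all genes of the 2 groups compared (4 for an interaction) with edgeR 4.0.16 in R 4.3.3 (filterByExpr with a minimum count of 10, TMM, quasi-likelihood test, Benjamini-Hochberg adjustment, threshold 0.01). SE was taken as |log2 fold change| over the root of the F statistic. Alternatives were DESeq2 1.42.0, RLE size factors, library totals, no filter on low counts, all 6 groups in the fit, the replicate number as a block, each library left out in turn, and SLC25A17 with SLC30A9 left out. Libraries with the same number deviated together in every pair (correlation 0.45 to 0.59) only for low against uninduced cells in thapsigargin. The fits were tested on simulated data: for high against uninduced vehicle, edgeR found 86.4% of 198 genes changed 2-fold among 14333, with 1.72% false calls. Promoters came from RefSeq (GRCh38.p14) and transcripts from GENCODE 29.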

Additional observations from a re-analysis of the deposited data

How the results depend on the processing

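Counts of called carriers are given as SLC25 genes and as genes of the other class (SLC35, SLC30 and SLC39). SLC25A1, SLC25A3, SLC25A26, SLC35B4, SLC35E1 and SLC39A1 were lower at the high dose in vehicle under every alternative tried. With all libraries kept, the named genes gave 389 values on the same side of the threshold, 27 that passed it newly, 16 that no longer did and 0 with the opposite sign. With 1 library left out, these numbers were 389, 16, 68 and 1, the last being SLC39A6 in high against uninduced thapsigargin (-0.16 with all libraries, -0.337 to 0.0807 with 1 left out, the latter without high thapsigargin library 1). With 3 libraries a group, an interaction of 2-fold was mostly not detectable by edgeR. The cause of the changes below was not tested.

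For low against uninduced vehicle, the other class gave 1 call with DESeq2 and 3 with no filter. For high against uninduced vehicle, SLC25 gave 5 with DESeq2 and 5 with no filter, and the other class 7 with all 6 groups and 3 of 43 with the replicate block, a count equal to the 3 of 40 SLC25 genes under that fit. Of all 14444 genes, the block called 704 lower and 46 higher. The correlations of same-numbered libraries in this comparison ran from -0.48 to 0.14, so the numbers do not pair them. For high against low vehicle, SLC25 gave 4 with DESeq2, 2 with all groups and 6 with the block, and the other class 7, 4 and 10, and 4 with no filter. For thapsigargin in uninduced cells, SLC25 gave 10 with the block, and the other class 11 with DESeq2, 8 with no filter and 13 with the block. At the low dose, SLC25 gave 3 with DESeq2, 2 with no filter, 2 with all groups and 11 with the block, and the other class 3, 2, 3 and 9. At the high dose, SLC25 gave 3 with DESeq2, 1 with library totals, 2 with no filter and 4 with all groups, and the other class 7, 1, 3 and 8. For low against uninduced thapsigargin, the block, which the libraries' deviations back, gave 3 in each class. Of all 14509 genes, it called 197 higher and 367 lower. For the high interaction, SLC25 gave 1 with DESeq2, and the other class 6 with DESeq2, 1 with library totals and 2 with no filter. Library totals moved the all-gene median of this interaction from 0.04 to -0.14. Over all genes, the block called 102 higher and 1122 lower for high against low vehicle. For thapsigargin, it called 1845 higher and 1726 lower in uninduced cells, and 1954 and 1666 at the low dose.

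With 1 library left out, counts ran as follows for SLC25 and the other class: low against uninduced vehicle 0 to 6 and 0 to 10, high against uninduced vehicle 3 to 4 and 7 to 14, high against low vehicle 0 to 1 and 0 to 4, thapsigargin in uninduced cells 1 to 6 and 3 to 7, at the low dose 0 to 1 and 0 to 2, at the high dose 0 to 8 and 0 to 10, high against uninduced thapsigargin 2 to 10 and 9 to 17, and the high interaction 0 to 2 and 0 to 8. Low against uninduced thapsigargin and the low interaction stayed at 0.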
